A study of Mus musculus with 2 samples.

Results

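Cluster 5 is the cluster that the study named cardiac fibroblasts among interstitial cells of the injured mouse ventricle. Its table listed 605 genes, and 189 of them (31.2%) stood in none of the other 17 cluster tables. These cluster 5-only genes are described here, out of 6477 genes that the 18 cluster tables listed in all. A gene entered a table where at least 25% of the cells of either library held it and where the authors' mean level differed between the libraries by at least 0.25 on the log2 scale. Being in the table was therefore itself a statement that a gene differed, and "only" means that the gene did not pass both limits elsewhere. Shares of these genes in the other cell types were not analysed here, so the level that free RNA would give could not be set beside them. Of the other clusters, the share of rows listed nowhere else ran from 1.67% to 27.8%, with a median of 11.1% over 17 clusters.

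Cells came from 2 libraries, 1 for each genotype. The control library was from PostnMCM mice, in which the Postn locus drives a tamoxifen-inducible Cre recombinase. The other library was from Yapfl/fl;Wwtr1fl/+;PostnMCM mice, which carry 2 floxed alleles of Yap1 and 1 floxed allele of Wwtr1, the gene for TAZ. Both genotypes carried the Cre and an R26-eGFP reporter, were infarcted by coronary ligation at 8 to 10 weeks of age per the study's methods, and ate chow with 0.4 g/kg tamoxifen. The labels give collection at 6 days after infarction and the study's methods give 7 days. Cre acts only in cells that have expressed Postn, and the number of hearts behind each library was not given in the sources used here. Ventricular tissue was digested, passed through a 40 µm strainer that holds back cardiomyocytes, and sorted for live nucleated cells. With 1 library per genotype there was no test between genotypes and no value below has a replicate error. The tables give no number of cells or depth for a cluster, and none was inferred from the rounded fractions, so no interval is given either. Differences compare these 2 libraries, not the genotypes.

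Cardiac fibroblasts make and remodel the collagenous matrix of the heart, and after infarction many of them become contractile, matrix-secreting myofibroblasts. YAP and TAZ are coactivators that carry Hippo pathway and mechanical signals to the TEAD transcription factors. The heart is also covered by the epicardium, a mesothelial layer marked by uroplakins, keratins and Wt1, which is reactivated after injury and can give rise to fibroblasts.

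The values are shares of cells, in percent, that had a corrected count above 0. A gene is called lower or higher in the library labelled depleted where the share differed by at least 10 percentage points. Where a gene is said to be lower or higher in a number of subclusters out of 4, the sign of the difference is meant, whatever its size. A share has a ceiling, so that a gene found in nearly every cell of both libraries shows no difference on this scale.

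The targeted genes were examined first. Neither Yap1 (chr9:7932000-8004661, minus strand, GRCm39) nor Wwtr1 (chr3:57363067-57483331, minus strand) was listed for cluster 5. The authors also compared the libraries within 4 subclusters of the same cells, normalised again on their own and listed without limits. The study describes the subclusters as unequally made up of cells of both libraries. Subclusters 1 and 2 were not analysed here. They include the subcluster that the study assigns mainly to hearts with the floxed alleles, so a statement over the 4 subclusters leaves those cells out. Subcluster shares are coarse in the library labelled depleted, where they took 33, 24, 11 and 22 distinct values over all genes in subclusters 0, 3, 4 and 5. In subcluster 4 the smallest gap between values was 10 points, so that there a call at 10 points can rest on a single step. Yap1 was in 46.2% of control cells and 56.2% of cells of the library labelled depleted in subcluster 0, 23.3% and 43.5% in subcluster 3, 57.5% and 40% in subcluster 4, and 30.4% and 47.6% in subcluster 5. Wwtr1 was in 81.4% and 90.6%, 93.3% and 91.3%, 80.0% and 60.0%, and 100% and 85.7% of cells in the same order. Yap1 was thus lower in 1 of 4 subclusters and Wwtr1 in 3 of 4. Because neither gene was lower throughout by this measure, that library is named by its label, as the library labelled depleted. From immunostaining, the study reported markedly less nuclear Yap and Wwtr1 in reporter-positive cells of this genotype after infarction. That is protein in cells where Cre had acted, and the shares here are RNA in all cells of a subcluster. A read from outside the excised exons would not register the deletion.

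The name of the cluster was then set against markers. Col1a1 and Col1a2, which encode type I collagen, and Col3a1 and Dcn, the small proteoglycan decorin, were in 100% of cells of all 4 subclusters in both libraries. Gsn, which encodes gelsolin, was in 98.6%, 80%, 80% and 100% of control cells of subclusters 0, 3, 4 and 5. Postn, Dpt and Lum had their largest control shares in subcluster 5. Postn was in 25.5%, 40%, 10.0% and 87.0% of control cells of the subclusters in the same order, and in 28.1%, 13%, 20% and 100% of cells of the library labelled depleted. Dpt was in 5.5%, 13.3%, 10.0% and 95.7% of control cells, and Lum in 35.9%, 26.7%, 40% and 100%. Tcf21, a transcription factor of resident cardiac fibroblasts, was in 2.1%, 6.7%, 35.0% and 43.5%. The 10 fibroblast markers averaged 60.6%, 63.3%, 66.0% and 91.3% of control cells, and 65%, 66.1%, 66.0% and 96.2% in the library labelled depleted. Against the label, the mesothelial marker Upk3b was in 93.8%, 93.3% and 95% of control cells of subclusters 0, 3 and 4, but 21.7% of subcluster 5, and Wt1 was in 97.2%, 93.3%, 92.5% and 73.9%. The 11 mesothelial markers averaged 72.0%, 69.7%, 73.6% and 22.1% of control cells, and 76.4%, 63.2%, 68.2% and 11.3% in the library labelled depleted. Cluster 5 thus held collagen-expressing cells, many of which also carried epicardial genes, and it is called by its number from here on.

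Markers of immune cells moved between the libraries in these cells. The 6 neutrophil markers averaged between 37.7% and 44.2% of control cells over the 4 subclusters and between 19.3% and 25.4% in the library labelled depleted. The 11 macrophage markers averaged between 36.7% and 48.7% and between 27.7% and 36.3%. The 4 T cell markers found averaged between 3.2% and 8.1% and between 12.5% and 26.2%. S100a8 and S100a9, abundant cytosolic proteins of neutrophils, were in 32.6% and 49.7% of control cells of cluster 5 and 5.9% and 9.1% in the library labelled depleted, and they stood in 10 and 12 other cluster tables. The 8 cardiomyocyte markers averaged between 3.2% and 6.6% of control cells and between 0.4% and 5.0% in the library labelled depleted, where 7, 7, 6 and 4 of them were at 0 in subclusters 0, 3, 4 and 5. The part of these cell types in the results below was not tested.

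Of the 189 cluster 5-only genes, 95 had a smaller share in the library labelled depleted, 93 a larger one and 1 (Clu) the same. By the limit of 10 points, 69 were lower (36.5%) and 77 were higher (40.7%), and 43 lay between. Over all 605 rows, 31.6% were lower and 34.5% higher, and since every row was listed for differing, nothing is read from the gap. The 69 lower genes had a median share of 56.4% in the control library and 38.0% in the other. The 77 higher genes had medians of 27.9% and 47.1%. Both directions thus held genes found in a middling share of cells. Rows at or above 90% in both libraries made up 6.88% of the cluster 5-only genes and 20.9% of the 416 genes that another table also listed.

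**Figure D1:**
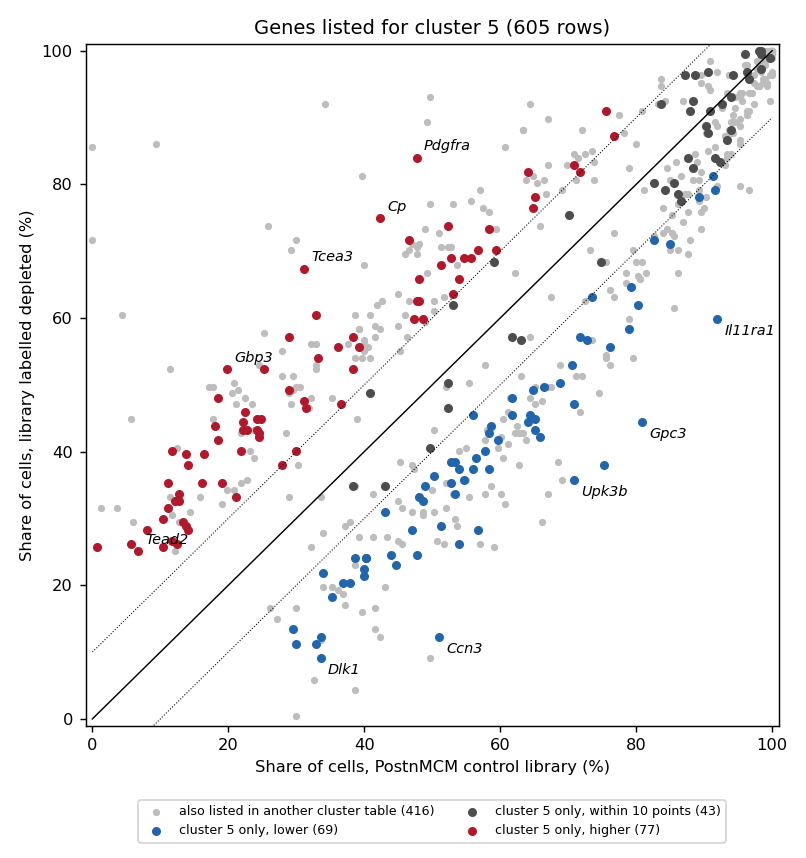
Share of cluster 5 cells with each gene in the PostnMCM control library (x axis, %) and in the library labelled depleted (y axis, %), 1 point per gene; the dotted lines mark 10 percentage points either side of equality. Of the cluster 5-only genes, 69 lie below the lower line (blue) and 77 above the upper line (red).

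The largest difference downward was in Ccn3 (chr15:54609012-54620154, plus strand), a secreted matricellular protein of the CCN family, found in 51.0% of control cells and 12.3% of cells of the library labelled depleted. It was also lower in each subcluster, from 83.4% to 37.5%, 80.0% to 21.7%, 27.5% to 0.0% and 60.9% to 19.0% in subclusters 0, 3, 4 and 5. Gpc3 (chrX:51361303-51703137, minus strand), a cell surface heparan sulfate proteoglycan, was in 80.9% and 44.4% of cells, with the widest gap in subcluster 5, at 69.6% and 4.8%. Il11ra1, the receptor subunit for interleukin 11, was in 91.9% and 59.9%. Des, the intermediate filament desmin, was in 56.7% and 28.3%. All 4 of these genes were lower in all 4 subclusters. Laptm4b, a lysosomal membrane protein, was in 75.2% and 38.0% of cluster 5 cells, but in subcluster 5 it was in 52.2% and 57.1%.

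The largest difference upward was in Pdgfra (chr5:75311994-75358876, plus strand), the receptor for platelet-derived growth factor that marks fibroblasts, found in 47.7% of control cells and 84.0% of cells of the library labelled depleted. Its subclusters divided. The share was 38.6% and 71.9% in subcluster 0 and 66.7% and 87.0% in subcluster 3, but 85.0% and 80.0% in subcluster 4 and 87.0% and 81.0% in subcluster 5, where most control cells already had it. Tcea3, a transcription elongation factor, was in 31.2% and 67.4% of cells and was higher in all 4 subclusters. Cp, the copper-binding ferroxidase ceruloplasmin, was in 42.3% and 74.9%. Abhd4, an enzyme of N-acyl phospholipid metabolism, was in 18.5% and 48.1%. Gxylt2, a xylosyltransferase, was in 28.9% and 57.2%.

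**Figure D2:**
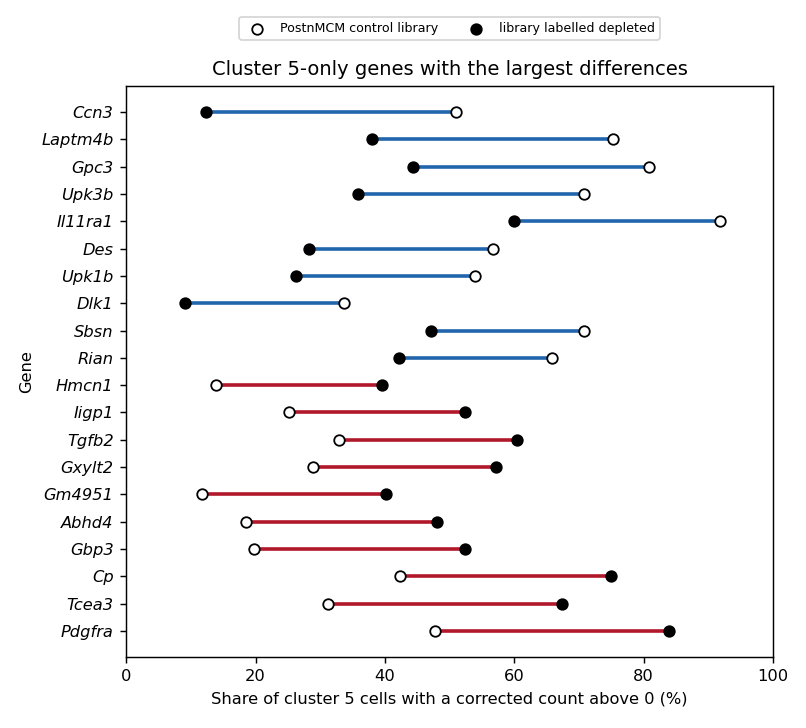
The 10 cluster 5-only genes with the largest difference in each direction; the x axis is the share of cluster 5 cells in percent, open circles are the control library and filled circles the library labelled depleted. Ccn3 ran from 51.0% to 12.3% and Pdgfra from 47.7% to 84.0%.

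Some genes were at the edge of detection in 1 library. Among the 189 cluster 5-only genes, 4 were under 10% in the control library and at 25% or more in the other, and 1 was the reverse, beside 12 and 5 of all 605 rows. The reverse was Dlk1, a Notch-like transmembrane protein, at 33.6% and 9.1%. The 4 were Zfp791, Gm41107, F830016B08Rik and Tead2. Zfp791, a zinc finger gene on chromosome 8, was at 0.7% and 25.7%, and Gm41107 at 5.7% and 26.2%. F830016B08Rik, annotated as protein-coding, was at 8.1% and 28.3%, and Tead2 at 6.7% and 25.1%. These were named after their values were seen. Tead2 was also the gene nearest to the 25% limit for listing, followed by Spon1, at 10.4% and 25.7%, and Zfp791, whose larger shares were equal. In the 4 subclusters Spon1 reached at most 13.3% of control cells and 19.0% of the others.

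Function was read from 24 gene lists, of which 19 held at least 1 cluster 5-only gene, and 117 of the 189 genes were in a list. For each list the count stands beside the 31.6% and 34.5% of all rows that were lower and higher. None of the counts was tested.

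**Figure D3:**
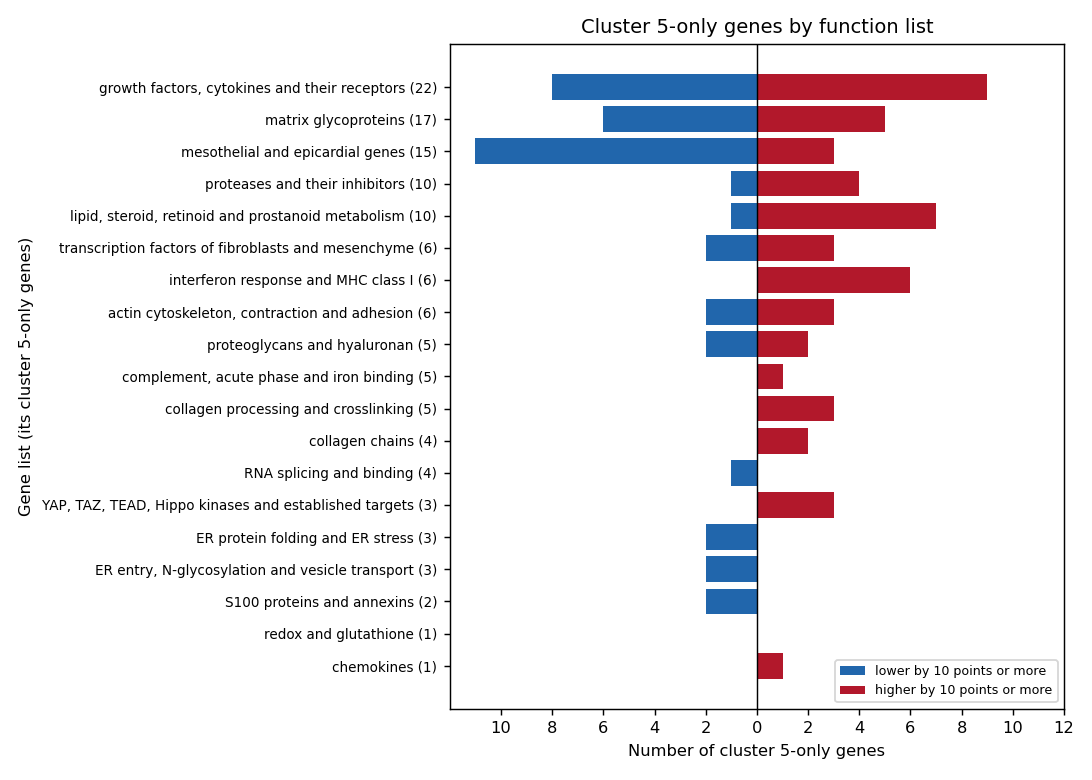
Number of cluster 5-only genes in each function list that were lower (blue, to the left) or higher (red, to the right) by at least 10 percentage points in the library labelled depleted; the number of cluster 5-only genes in each list is in brackets. The mesothelial and epicardial list leans left, at 11 lower and 3 higher, and all 6 genes of the interferon list lie to the right.

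The mesothelial and epicardial list held 15 cluster 5-only genes, of which 11 were lower and 3 higher, with a median difference of -16.6 points. The urothelial and mesothelial plaque proteins Upk3b (chr5:136067350-136075342, plus strand) and Upk1b were in 70.8% and 35.8%, and 54.0% and 26.2% of cells. Sbsn, which encodes suprabasin, was in 70.8% and 47.1%. The other lower genes were Gpm6a, Aqp5, Lrrn4, Anxa8, Krt8, Rspo1, Krt19 and Sema3d. Nkain4 lay within the limit, at 85.6% and 80.2%. The 3 higher genes were Rarres1, at 18.1% and 43.9%, Aldh1a2, the retinoic acid-synthesising enzyme of the epicardium, at 64.8% and 76.5%, and Lgals7, at 71.8% and 81.8%.

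Within subclusters the mesothelial genes did not all follow the cluster. Of the same 15 genes, 1 was lower and 4 were higher in subcluster 0, 5 and 2 in subcluster 3, 8 and 3 in subcluster 4, and 9 and 0 in subcluster 5. Over all genes of the list that 25% or more of the cells of a library held, 3 of 36 were lower and 10 higher in subcluster 0, 10 and 8 of 36 in subcluster 3, 8 and 13 of 36 in subcluster 4, and 11 and 2 of 16 in subcluster 5. That is 8.33% and 27.8% of the list in subcluster 0, beside 13.9% and 16.8% of all detected genes. In subcluster 3 it is 27.8% and 22.2%, beside 23.3% and 18.2%, and in subcluster 4 it is 22.2% and 36.1%, beside 24.8% and 33.5%, both near the background. In subcluster 5 it is 68.8% and 12.5%, beside 21.5% and 29.7%. Upk1b was in 77.2% and 87.5% of cells of subcluster 0, and Krt8 in 44.1% and 71.9%. In subcluster 5, where few control cells had them, Upk1b was in 8.7% and 4.8% and Krt8 in 4.3% and 0.0%. The tables give no number of cells for a subcluster, so a smaller share within cells and a different mix of subclusters cannot be told apart at the level of cluster 5.

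Subcluster 0 was set against subcluster 5 within the control library, a contrast chosen after the data were seen. No proportion of subclusters entered it, so it does not give the mix. Genes were called lower or higher by a difference that subtracts the control share of the same cells. Part of a gap in control shares between the lower and higher genes was therefore built in. Of the 69 lower genes, 34 were at least 20 points higher in subcluster 0 than in subcluster 5 of the control library and 1 was at least 20 points higher in subcluster 5. Of the 77 higher genes, 13 and 12 were. The median contrast was 18.8 points for the lower genes and -3.3 points for the higher genes, beside 5.1 over all 189. In the library labelled depleted the same medians were 17.9, 8.6 and 8.6 points, so that there the higher genes had the median of all 189. At least 20 points higher in subcluster 0 of that library were 31.2% of the higher genes, 47.8% of the lower genes and 36.0% of all 189.

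**Figure D4:**
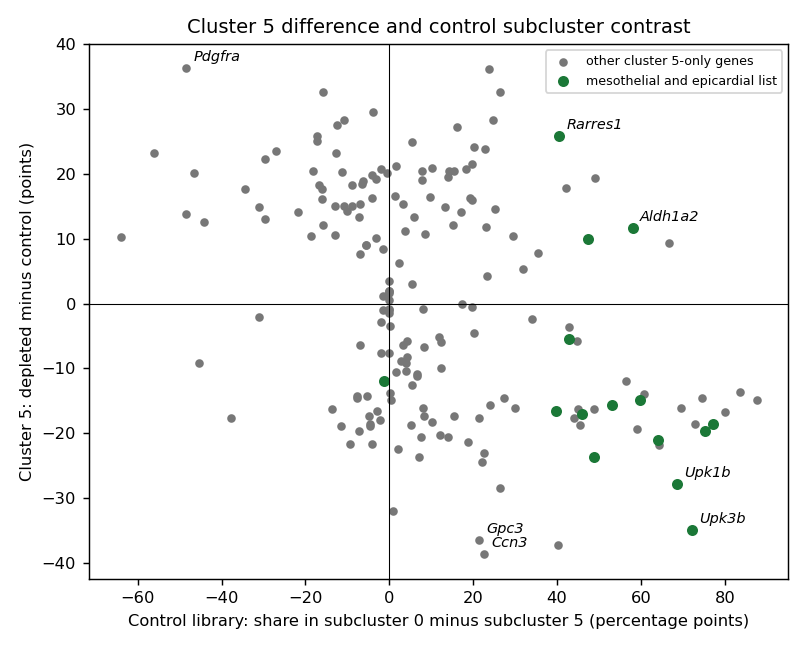
For each cluster 5-only gene, the control share in subcluster 0 minus that in subcluster 5 (x axis, percentage points) and its cluster 5 difference between libraries (y axis, percentage points); green points are the mesothelial and epicardial list. Most green points lie at the lower right, with Upk3b at -35.0 points on the y axis, while Rarres1 and Aldh1a2 lie above 0 and Pdgfra at the upper left. Both axes use control shares of the same cells.

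All 6 cluster 5-only genes of the interferon and MHC class I list were higher, with a median difference of 25.7 points. Gbp3, an interferon-induced guanylate-binding GTPase, was in 19.8% and 52.4% of cells. Iigp1, an immunity-related GTPase, was in 25.2% and 52.4%, and Gm4951, a predicted gene of the list, in 11.7% and 40.1%. Ddx60, a helicase of antiviral sensing, was in 11.1% and 35.3%, Phf11d in 33.2% and 54.0%, and Ifit3, an interferon-induced protein with tetratricopeptide repeats, in 12.1% and 32.6%. Each of the 6 genes had a larger share in the library labelled depleted in all 4 subclusters. By the limit of 10 points, 5, 3, 5 and 6 of the 6 were higher in subclusters 0, 3, 4 and 5. Over all detected genes, 16.8%, 18.2%, 33.5% and 29.7% were higher in the same order. In Gbp3 the gaps were alike, at 23.2, 24.2, 22.5 and 25.1 points. In Gm4951 the gap was 1.7 points in subcluster 3, and in Iigp1 it was 2.5 points in subcluster 4. The list was not particular to these rows, since of its 38 genes among all cluster 5 rows, 32 were higher and 0 lower.

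RefSeq promoter windows (GRCm38.p6, 250 bases before to 50 after the start) were found for 128 of the 189 genes and searched on both strands for 3 motifs. The interferon-stimulated element was written as GAAA, 2 bases of any kind, GAAA. It was in 3 of the 4 interferon list genes with a window (Ifit3, Ddx60 and Gbp3), in 5 of 51 higher genes, in 4 of 51 lower genes and in 3.99% of all 27025 symbols with a window. These 3 windows are shown because they held the element, with matches in capitals. The window of the list without a match is not shown. They lie at chr19:34583279-34583578, plus strand, at chr8:61927837-61928136, plus strand, and at chr3:142559794-142560093, plus strand, and are printed on the strand of the gene, for Gbp3 the first of its 2 windows.
Ifit3: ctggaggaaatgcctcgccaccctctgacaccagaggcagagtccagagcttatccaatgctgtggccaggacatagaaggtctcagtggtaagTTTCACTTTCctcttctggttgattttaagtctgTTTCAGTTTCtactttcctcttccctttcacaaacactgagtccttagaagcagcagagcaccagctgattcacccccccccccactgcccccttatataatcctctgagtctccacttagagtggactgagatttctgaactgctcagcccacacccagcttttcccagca
Ddx60: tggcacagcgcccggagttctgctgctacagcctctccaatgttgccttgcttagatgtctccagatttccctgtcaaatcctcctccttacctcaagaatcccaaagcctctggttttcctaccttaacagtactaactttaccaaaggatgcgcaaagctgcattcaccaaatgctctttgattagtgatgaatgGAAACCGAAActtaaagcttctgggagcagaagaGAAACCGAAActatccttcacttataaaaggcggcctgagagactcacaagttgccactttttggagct
Gbp3: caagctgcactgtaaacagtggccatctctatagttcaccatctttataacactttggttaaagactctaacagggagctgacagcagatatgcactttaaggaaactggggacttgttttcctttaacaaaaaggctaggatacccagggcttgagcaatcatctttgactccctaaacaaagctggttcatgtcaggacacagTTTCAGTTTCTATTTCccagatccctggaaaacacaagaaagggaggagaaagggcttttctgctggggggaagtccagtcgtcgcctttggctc
Each window held 2 matches, which in Gbp3 overlap. On the minus strand the element reads TTTC, 2 bases, TTTC.

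The list of YAP, TAZ, TEAD, Hippo kinases and established targets held 3 genes in the cluster 5 table. All 3 were cluster 5-only and higher. Tead1 (chr7:112278522-112506014, plus strand), a DNA-binding partner of YAP and TAZ, was in 54.7% and 69.0% of cells, and its relative Tead2 (chr7:44865172-44883071, plus strand) in 6.7% and 25.1%. Both TEAD genes were higher in all 4 subclusters, Tead2 most in subcluster 5, at 21.7% and 71.4%. Tgfb2 (chr1:186354985-186438294, minus strand), a transforming growth factor β ligand, was in 32.9% and 60.4%, but in subcluster 3 it was in 56.7% and 56.5%. The common targets Ccn1, Ccn2 and Ankrd1 were not listed for cluster 5. Ccn1 was in 23.4% and 25%, 30% and 34.8%, 42.5% and 40%, and 78.3% and 57.1% of cells of subclusters 0, 3, 4 and 5, and Ccn2 in 11.7% and 21.9%, 26.7% and 13%, 27.5% and 20%, and 78.3% and 76.2%. Neither went one way throughout. Of the detected genes of the whole list, 1 of 31 was lower and 9 higher in subcluster 0, 7 and 7 of 32 in subcluster 3, 8 and 11 of 32 in subcluster 4, and 7 and 15 of 31 in subcluster 5. Over all detected genes the shares lower and higher were 13.9% and 16.8%, 23.3% and 18.2%, 24.8% and 33.5%, and 21.5% and 29.7% in the same order, so that in subclusters 3 and 4 the list was near the background.

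The TEAD core motif CATTCC was in the windows of 9 of 51 lower genes (17.6%) and 11 of 51 higher genes (21.6%), beside 16.6% of all symbols. Windows of a gene from each direction are shown, Acta2 at chr19:34255324-34255623, minus strand, and Upk3b at chr5:136038246-136038545, plus strand, with the core in capitals. In Acta2 it reads GGAATG, its reverse complement.
Acta2: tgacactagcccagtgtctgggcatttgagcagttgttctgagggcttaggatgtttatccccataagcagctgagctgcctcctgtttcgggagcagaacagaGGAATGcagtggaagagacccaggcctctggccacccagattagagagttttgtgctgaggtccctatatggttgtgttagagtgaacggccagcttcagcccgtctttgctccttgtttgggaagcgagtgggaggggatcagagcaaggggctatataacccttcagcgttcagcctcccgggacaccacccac
Upk3b: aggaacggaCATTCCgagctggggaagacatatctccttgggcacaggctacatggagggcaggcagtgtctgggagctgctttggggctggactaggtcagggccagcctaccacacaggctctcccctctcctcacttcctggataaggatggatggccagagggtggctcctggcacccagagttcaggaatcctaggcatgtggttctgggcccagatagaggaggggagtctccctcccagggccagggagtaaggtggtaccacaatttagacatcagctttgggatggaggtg
The ER stress element (CCAAT, 9 bases of any kind, CCACG) was in 1 window, that of Hnrnpa3, beside 0.137% of all symbols. A match describes the letters of a window and is not a bound site.

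Matrix genes went both ways. The 4 cluster 5-only collagen chains all had larger shares in the library labelled depleted. Col5a3, a minor chain of type V collagen, was in 22.1% and 44.4% of cells and Col24a1 in 14.1% and 28.3%, while Col6a1 and Col6a2 lay within the limit near the ceiling, Col6a2 at 94.3% and 96.3%. Of 5 collagen-processing genes, 3 were higher, and none at a limit of 20 points or by a log2 ratio of shares of 0.5. The 3 were Bmp1, the procollagen C-proteinase, at 75.5% and 90.9%, Lox, a lysyl oxidase that crosslinks collagen, at 65.1% and 78.1%, and Plod2, a lysyl hydroxylase, at 70.8% and 82.9%. P3h4 and Pcolce lay within the limit, at 91.6% and 84.0%, and 90.6% and 87.7%. In subcluster 5 Bmp1, Lox and Plod2 were each in 100% of cells of both libraries.

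Of 17 genes of the matrix glycoprotein list, 6 were lower and 5 higher. Besides Ccn3, the named members were Hmcn1, Angptl2 and Nrep. Hmcn1, the giant matrix protein hemicentin, was in 13.8% and 39.6% of cells, and Angptl2 in 24.5% and 42.8%. Nrep, which is on the list but is not itself a matrix glycoprotein, was in 22.8% and 43.3%. A few more members were picked after their values were seen. Fbln5, which binds elastin, was in 52.7% and 38.5% of cells and Mfap2, a microfibril protein, in 91.6% and 79.1%. Eln, which encodes tropoelastin, was in 88.3% and 82.4%, and Mfap5 in 63.1% and 56.7%, both within the limit. Eln was lower in all 4 subclusters. Among 5 genes of the proteoglycan and hyaluronan list, Gpc3 and Ugdh, the enzyme that makes UDP-glucuronate, were lower, the latter at 80.2% and 62.0%. Gxylt2, a xylosyltransferase and not itself a proteoglycan, and Lum were higher, Lum at 29.9% and 40.1%. Ogn lay within the limit.

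Of 10 cluster 5-only proteases and inhibitors, 4 were higher and 1 lower. Capn6, a calpain without protease activity, was in 14.1% and 38.0% of cells and was higher in all 4 subclusters. Adamts15, a metalloprotease that cleaves proteoglycans, was in 16.4% and 39.6%, and Adamts1 in 39.3% and 55.6%. Prss23 was the lower gene, at 54.7% and 35.8%.

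The largest list, growth factors, cytokines and their receptors, held 22 cluster 5-only genes, 8 lower and 9 higher. The named members were Il11ra1 and Dlk1 on the lower side and Pdgfra and Tgfb2 on the higher side. The second receptor for platelet-derived growth factor, Pdgfrb, was in 24.8% and 44.9% of cells, but in subcluster 0 it was in 31.7% and 31.2%. The only chemokine, Cxcl13, which attracts B cells, was in 27.9% and 38.0% of cluster 5 cells, but it was in 31.7% and 9.4% of subcluster 0 and 34.8% and 14.3% of subcluster 5.

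Among 6 actin, contraction and adhesion genes, 2 were lower and 3 higher. Acta2, the smooth muscle actin of myofibroblasts, was in 21.8% and 40.1% of cells and was higher in all 4 subclusters, by 28.4, 25, 7.5 and 28.4 points in the order 0, 3, 4 and 5. Cdh2, which encodes N-cadherin, was in 52.7% and 69.0% of cells, with the widest gap in subcluster 5, at 43.5% and 95.2%. Myl9, a myosin light chain, was in 12.4% and 26.2%. Des is also a gene of heart muscle, and the cardiomyocyte markers averaged 4.0% of control cells and 0.4% of the others in subcluster 0, and 5.4% and 0.5% in subcluster 3. Their part in the difference of Des was not tested.

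Of 6 transcription factors of fibroblasts and mesenchyme, 2 were lower and 3 higher. Prrx1, a homeobox factor of mesenchyme, was in 64.1% and 81.8% of cells and its relative Prrx2 in 56.4% and 39.0%. Prrx2 was lower in all 4 subclusters. Etv1 was in 11.1% and 31.6%, Auts2 in 38.3% and 57.2%, and Gata5, a factor of the epicardium and endocardium, in 39.9% and 21.4%. The tight junction genes Cldn3, at 48.7% and 32.6%, and Cldn10, at 36.2% and 55.6%, named after their values were seen, also went opposite ways.

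Of 10 lipid, steroid, retinoid and prostanoid genes, 7 were higher and 1 lower. Besides Abhd4, the largest differences were in Cyp1b1, a cytochrome that oxidises steroids and retinoids, at 46.6% and 71.7%, Hadh, an enzyme of fatty acid β-oxidation, at 52.3% and 73.8%, and Cyp7b1, an oxysterol hydroxylase, at 16.1% and 35.3%. Hadh was higher in all 4 subclusters. Fabp3, a fatty acid-binding protein, that heart muscle also expresses, was the lower gene, at 29.9% and 11.2%, beside the same cardiomyocyte markers.

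The list of ER protein folding and ER stress and that of ER entry, N-glycosylation and vesicle transport each held 3 cluster 5-only genes, of which 2 were lower and 1 lay within the limit. Atf5, a stress-responsive transcription factor, was in 44.6% and 23.0% of cells, and the peptidyl-prolyl isomerase Fkbp11 in 79.2% and 64.7%. Kdelr3, which returns escaped proteins to the endoplasmic reticulum, was in 64.4% and 45.5%, and Mcfd2, a cargo receptor subunit, in 65.1% and 44.9%. Gpx8 and Tmed9 were the genes within the limit, near the ceiling at 94.0% and 93.0%, and 90.3% and 88.8%. The calcium-binding Anxa8 and S100a16 were both lower, at 35.2% and 18.2%, and 89.3% and 78.1%. Of 5 complement and acute phase genes, Cp was higher, and Serping1, C1s1, C1ra and Clu lay within the limit.

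The RNA splicing and binding list held 4 cluster 5-only genes, of which the noncoding RNA Rian was lower and Meg3, Hnrnpa3 and Snhg18 lay within the limit. Hnrnpa3, an RNA-binding protein, was in 94.0% and 88.2% of cells and Snhg18, a noncoding RNA, in 87.2% and 96.3%. The redox list held Gpx8 alone.

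The lists of oxidative phosphorylation, glycolysis, ribosomal proteins, translation factors and the proteasome held no cluster 5-only gene, although 14, 4, 8, 20 and 6 of their genes were in the cluster 5 table. Genes of these common pathways that were listed for cluster 5 were all listed for another cluster too.

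A run of neighbours on chromosome 12 was found among the cluster 5-only genes after their values were seen. Dlk1 (chr12:109418749-109429262, plus strand), the noncoding RNA Meg3 (chr12:109506877-109538165, plus strand), Rtl1 (chr12:109555627-109582007, minus strand) and the noncoding RNA Rian (chr12:109570242-109628150, plus strand) belong to one imprinted domain, in which Dlk1 and Rtl1 are expressed from the paternal and Meg3 and Rian from the maternal chromosome. Rian was in 65.8% and 42.2% of cells, Rtl1 in 43.0% and 34.8%, and Meg3 in 92.3% and 83.4%. With Dlk1, all 4 genes had smaller shares in the library labelled depleted in cluster 5 and in each of the 4 subclusters. Rtl1 and Rian overlap on opposite strands. A further noncoding RNA of the domain, Mirg, was not listed for cluster 5 and was in 19.3% and 12.5%, 6.7% and 13%, 12.5% and 20%, and 30.4% and 9.5% of cells in subclusters 0, 3, 4 and 5.

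The 72 cluster 5-only genes outside every list added Laptm4b and Tcea3 to the largest differences. Of the rest, the ones described here were picked after their values were seen. Tgfb1i1, the focal adhesion protein Hic-5, was in 64.1% and 44.4% of cells and was lower in all 4 subclusters, and Cd248, endosialin, a surface protein of stromal cells, was in 82.6% and 71.7% and also lower in all 4. Vcam1, an adhesion molecule for leukocytes, was in 24.5% and 42.2%. Fblim1, which links filamin to focal adhesions, was in 28.9% and 49.2% and was higher in all 4.

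Subclusters were read as a description of the same cells, not as separate evidence. In subcluster 0, 19.0% of the 189 genes were lower and 25.4% higher, beside 9.85% and 10.8% of all 15059 genes. In subcluster 3, 25.4% were lower and 22.8% higher, beside 17.1% and 13.1%. In subcluster 4, 28.6% and 33.3% were, beside 20.3% and 24.7%, and in subcluster 5, 30.7% and 19.0%, beside 14.3% and 21.2%. Many of the 15059 genes were in few cells, so the same was read over detected genes, those that 25% or more of the cells of a library held. Of 183 detected members in subcluster 0, 19.7% were lower and 26.2% higher, beside 13.9% and 16.8% of all detected genes. Of 183 in subcluster 3, 26.2% and 23.0% were, beside 23.3% and 18.2%. Of 182 in subcluster 4, 29.1% and 34.6% were, beside 24.8% and 33.5%. Of 159 in subcluster 5, 34% and 20.8% were, beside 21.5% and 29.7%. The members were thus fewer than the background on the higher side of subcluster 5.

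In total 58 of the 189 genes had a difference of one sign in all 4 subclusters, 29 lower and 29 higher. Among the 149 that were so detected in every subcluster, 15.4% were lower in all 4 and 14.8% higher, beside 6.31% and 7.61% of all 7080 such genes. The members were listed on the same cells, so a larger share was built into their choice. Of the 69 genes lower in cluster 5, 26 were lower in all 4 subclusters, and of the 77 higher genes, 27 were higher in all 4. Most of the cluster 5-only genes therefore did not have a difference of one sign in all 4 subclusters. A difference of 0 counted against one sign, also at the ceiling, as for Lox at 100% of both libraries in subclusters 4 and 5. The count does not separate such ties from reversals.

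**Figure D5:**
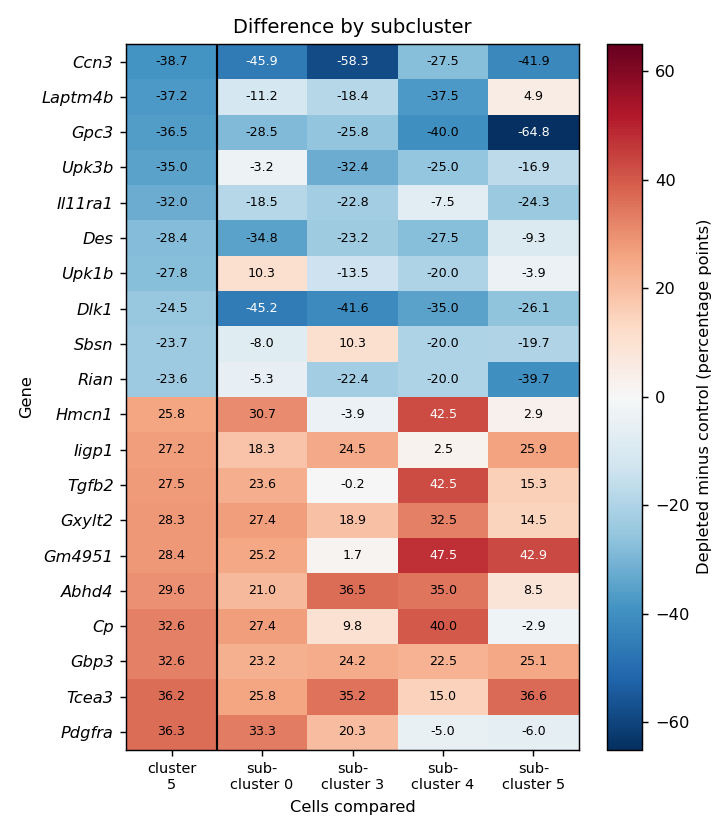
Difference in share of cells, library labelled depleted minus control, in percentage points, for the 10 cluster 5-only genes with the largest cluster 5 difference in each direction (rows) in cluster 5 and in subclusters 0, 3, 4 and 5 (columns). Ccn3, Gpc3 and Dlk1 are negative in every column and Gbp3 and Tcea3 positive in every column, while Pdgfra is positive in subclusters 0 and 3 and negative in 4 and 5.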

How the data were processed

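Droplet single-cell RNA sequencing (10x Chromium, version 3.1 chemistry) was made of ventricular interstitial cells in 2 libraries. Per the submitters' processing notes and the study's methods, the authors counted UMIs with Cell Ranger 6.1.1 against GRCm39 (NCBI annotation release 109), kept genes with a UMI in at least 20 cells, removed 3 low-quality clusters and cells beyond 6 median absolute deviations, normalised with SCTransform, and clustered with Seurat 4.0.6 in R 4.1.2. No doublet caller is named, so doublets may remain. The only values used were the deposited fractions of cells whose corrected count was above 0, as percent. The authors' fold changes and p-values, computed over cells, were not used. Corrected counts of cluster 5 and of its subclusters come from separate normalisations, so their shares are not on one scale. Cluster 16 and subclusters 1 and 2 were not analysed here.

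Shares were subtracted, library labelled depleted minus control, and counted at 10 percentage points (Python 3.11.15, pandas 2.3.3). Counting functions were tested on simulated data. Depth per library is unknown from these tables. The named genes were the 10 largest differences in each direction, up to 4 per function list, the markers and targeted genes, and 2 genes at the listing limit. Others are marked in the text as chosen after their values were seen. The members and lists were chosen with earlier results of these data known. Positions are from GENCODE M39 (GRCm39), and promoter windows from RefSeq (GRCm38.p6). These builds were not mixed.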

Additional observations from a re-analysis of the deposited data

Results flagged for a closer look

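Of the named genes, 3 differed by at least 20 percentage points in opposite directions in 2 subclusters, and this difference between subclusters was not tested. Col5a3 was 26.7 points lower in the library labelled depleted in subcluster 5 (a difference of -26.7) and 40 points higher in subcluster 4. Adamts15 had a difference of -25.3 points in subcluster 5 and 28.1 points in subcluster 3. Cyp1b1 had a difference of -26.3 points in subcluster 5 and 22.5 points in subcluster 4. The negative value was in subcluster 5 for all 3 genes.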

How the results depend on the processing

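No paired analysis was possible because 1 library stood for each genotype. The counts of 69 lower and 77 higher cluster 5-only genes stayed within 1.5 times under a limit of 5 points, a log odds ratio, the removal of rows near the ceiling or of predicted genes, and both wider definitions of cluster 5-only. They were 20 and 31 at 20 points, and 43 and 51 by a log2 ratio of shares of at least 0.5. Of the 189 genes, 58 had one sign in all 4 subclusters, 31 did so with at least 5 points in each, and 90 had one sign in the 3 subclusters other than subcluster 5. At 20 points the lower and higher counts were 7 and 19 in subcluster 0, 25 and 21 in subcluster 3, 27 and 34 in subcluster 4, and 30 and 19 in subcluster 5. By the log2 ratio they were 9 and 27 in subcluster 0, 24 lower in subcluster 3, and 21 and 36 in subcluster 4. A stricter limit counts fewer genes by construction. Of 38 counts of lower or higher genes by function list, 23 moved by more than 1.5 times at 20 points, 11 by the log2 ratio and 4 at 5 points; the 3 higher collagen-processing genes became 0 under the first 2, and all 6 interferon genes were still higher under all 3. With 1 library per genotype and no cell numbers in the tables, no error is given for a share, and in subcluster 4 a single step of the share in the library labelled depleted is 10 points.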
